A study of Bos taurus with 6 samples.

Results

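The mitochondrial genome transcripts of bovine (Bos taurus) day 7 blastocysts are described here as 26 of the 12826 genes in the count table, taken by their locus tags, which begin with KEH36_. They are all 13 protein genes and both rRNA genes of the mitochondrial chromosome, and 11 of its 22 tRNA genes. The other 11 tRNA genes are not analysed here. The embryos were made in vitro from slaughterhouse material. There were 3 libraries of blastocysts that had received the ketone body beta-hydroxybutyrate (BHB) and 3 of control blastocysts without it. A library is a pool of embryos, whose number is not given, and neither are dose and duration. No source tells whether the pools stem from different collections, so the p-values rest on the spread between pools, which may be technical.

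Mitochondrial DNA is a small circle inherited through the oocyte. Its strands are copied into long precursor RNAs that are cut, mostly at the tRNAs that lie between the other genes, into mRNAs, rRNAs and tRNAs. The proteins are core subunits of complexes I, III, IV and V of oxidative phosphorylation, which hold many more subunits encoded in the nucleus. BHB is oxidised inside mitochondria and feeds electrons into this chain, and the blastocyst is a stage at which the embryo uses more oxygen than during cleavage. Most mitochondrial mRNAs carry short poly(A) tails, mitochondrial rRNAs shorter ones, and mature mitochondrial tRNAs none, while the libraries were made from polyadenylated RNA. Counts on mitochondrial genes, those of rRNAs and tRNAs above all, therefore describe the RNA that the selection kept, not its amount in the embryo.

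Total counts were 6440732 to 7348949 in BHB libraries and 7925889 to 8176648 in control libraries. Libraries with the same number are called a pair below, since the authors' deposited statistics could be refitted with these pairs and no others. All 6 trophectoderm markers fixed for the check of the tissue were in the table, and 3 of 4 inner cell mass markers (POU5F1, NANOG and KLF17). Of markers of cells that a pool could also hold, 2 of 8 for cumulus and granulosa cells (FSHR and CYP19A1) were in the table, with a summed level of at most 24.5 CPM (read counts scaled to a common library size) in BHB and at most 26.8 CPM in control libraries. Of oocyte markers 2 of 6 (ZP3 and OOSP2) summed to 1.75 to 3.88 CPM in BHB and 3.87 to 5.88 CPM in control libraries. The other markers of these 4 lists were not among the genes of the table.

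Mitochondrial RNA took a smaller share of the raw counts in every BHB library than in any control library, and most of that share was mRNA. Mitochondrial genes held 8.90%, 9.07% and 8.84% of counts in BHB libraries 1 to 3, against 9.17%, 10.7% and 9.36% in control libraries 1 to 3. The mean was 8.94% ± 0.12 in BHB libraries and 9.74% ± 0.83 in control libraries (SD, n = 3 each). The BHB libraries lay close together, and control 2 stood above all others. The difference was -0.80 percentage points (exact permutation test, two-sided, p = 0.10, the smallest that 3 against 3 libraries can give), and -0.27, -1.62 and -0.51 in pairs 1 to 3. It was -0.33 percentage points without control 2. Over the scaled library size that CPM uses, the groups overlapped, though BHB was lower within each pair. BHB 2, with 656385 mitochondrial counts over a scaled size of 7220709, lay above control 3, with 765270 over 8516895. The 95% Wilson interval of each library's share was at most ± 0.0219 percentage points and covers counting error only. A share of counts does not give the amount of mitochondrial RNA in the embryo, which was not tested. In pooled embryos, fewer mitochondria, fewer copies of the genome, fewer cells rich in them, less RNA per copy and no change in any of these cannot be told apart.

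**Figure D1:**
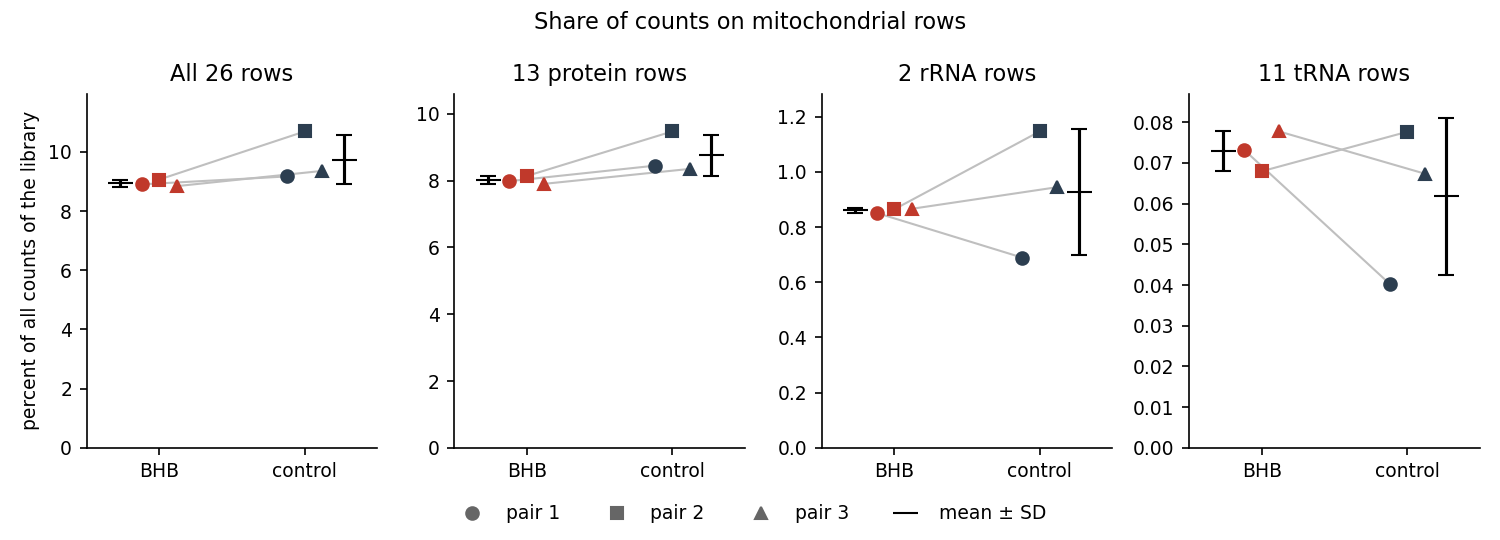
Percent of all counts of a library (vertical axes, each from 0) on all 26 mitochondrial genes, the 13 protein genes, the 2 rRNA genes and the 11 tRNA genes. Points are libraries, grey lines join the libraries of a pair, and bars give mean ± SD. BHB libraries hold 8.84% to 9.07% on all genes and control libraries 9.17% to 10.7%, while the groups overlap for rRNA and tRNA genes.

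Divided by kind of RNA, protein genes had 89.7% of all mitochondrial counts over the 6 libraries. They held 7.98%, 8.14% and 7.90% of library counts in BHB libraries, against 8.44%, 9.47% and 8.35% in control libraries, with no overlap (exact permutation test p = 0.10, adjusted over the 3 kinds 0.30). The difference of -0.75 percentage points was -0.39 without control 2. Summed in CPM, the protein genes overlapped between the groups, with BHB 2 above control 3. The rRNA genes held 0.86% ± 0.0082 in BHB and 0.93% ± 0.23 in control libraries (exact permutation test p = 0.70, n = 3 each). The tRNA genes held 0.073% ± 0.0049 in BHB and 0.062% ± 0.019 in control libraries (exact permutation test p = 0.40, n = 3 each). For rRNA and tRNA genes the groups overlapped and the spread among controls was wider than the difference. Control 1 was the lowest library for each of these kinds, at 0.69% for rRNA and 0.040% for tRNA genes, and the rRNA difference turned to 0.044 percentage points without control 2.

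The protein genes differed widely among themselves in level per length, in a similar order across libraries. Levels per kilobase (kb) use the gene lengths of the ARS-UCD2.0 table. The 3 subunits of cytochrome c oxidase (complex IV), which passes electrons to oxygen, and ATP6 of ATP synthase (complex V) led. COX3 (KEH36_p07) averaged 16857 ± 399 CPM per kb in BHB and 18255 ± 2486 CPM per kb in control libraries (SD, n = 3 each). COX1 (KEH36_p11), the catalytic subunit, averaged 14667 ± 2237 CPM per kb in BHB and 17771 ± 4075 CPM per kb in control libraries. ATP6 (KEH36_p08), a part of the proton channel of ATP synthase, averaged 14850 ± 594 CPM per kb in BHB and 16821 ± 2151 CPM per kb in control libraries. The order of these 3 genes varied from library to library. COX2 (KEH36_p10), which takes electrons from cytochrome c, was below ATP6 in 6 of 6 libraries although their ranges over all libraries overlapped.

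CYTB (KEH36_p01), the cytochrome b of complex III, held the fifth place in every library, at 7689 ± 1342 CPM per kb in BHB and 8570 ± 2017 CPM per kb in control libraries, and its range overlapped neither of its neighbours in the order. ND3 (KEH36_p06), a complex I subunit, was the sixth in every library. ND1 (KEH36_p13), both rRNAs, ND4 (KEH36_p04), ATP8 (KEH36_p09), ND6 (KEH36_p02) and ND2 (KEH36_p12) followed with ranges that overlapped from neighbour to neighbour. ND4L (KEH36_p05) and ND5 (KEH36_p03), both complex I subunits, were the fourteenth and the last of 15 in 6 of 6 libraries. ND5 averaged 1177 ± 125 CPM per kb in BHB and 1278 ± 155 CPM per kb in control libraries. The highest protein gene was 12.9, 14.9 and 15.4 times the lowest in BHB libraries 1 to 3, and 16.3, 15.4 and 14.5 times in control libraries 1 to 3, per kb.

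**Figure D2:**
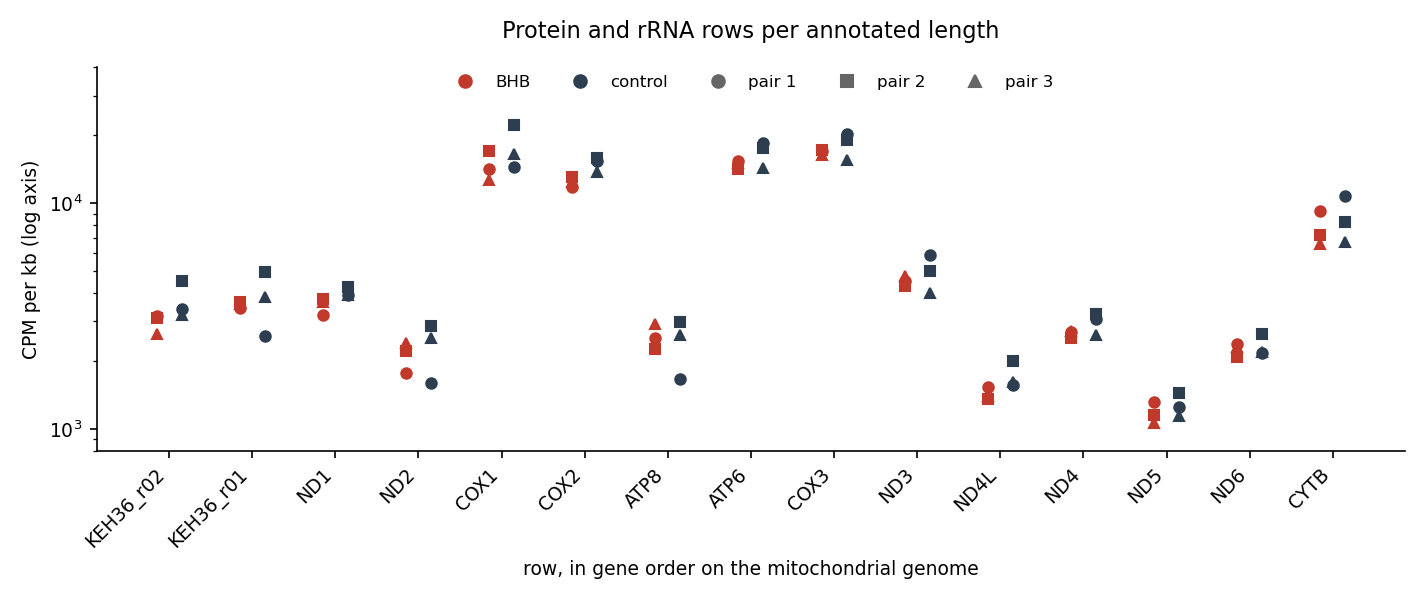
Level of each protein and rRNA gene in CPM per kb of annotated length (vertical axis, log scale), in gene order on the mitochondrial genome (horizontal axis). Each point is a library, BHB left of control, and the symbol gives the pair. COX1, COX2, ATP6 and COX3 lie highest, ND5 lowest, and the groups overlap for most genes.

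Genes that share a transcript gave unequal counts. In mammals ATP8 and ATP6 are read from a single mRNA with overlapping frames, as are ND4L and ND4, and in the gene table the members of each couple share bases. ATP8, a small membrane subunit of ATP synthase, had 0.17, 0.16 and 0.19 of the count per length of ATP6 in BHB libraries 1 to 3, against 0.089, 0.17 and 0.18 in control libraries 1 to 3. Control 1 lay far below the other 5 libraries in that ratio. ND4L had 0.54 ± 0.029 of the count per length of ND4 in BHB and 0.58 ± 0.064 in control libraries (SD, n = 3 each). The treatment of reads that touch more than 1 gene is not given in the sources used here, and it bears most on genes as short as these. On the log2 scale the ATP8 to ATP6 ratio differed by 0.29 between BHB and control (exact permutation test p = 0.70) and by -0.032 without control 1. The ND4L to ND4 ratio differed by -0.097 (exact permutation test p = 0.40).

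No mitochondrial gene passed the test between BHB and control blastocysts. With edgeR's quasi-likelihood test, 0 of 26 were called after Benjamini-Hochberg adjustment over all 12732 genes tested (adjusted p = 0.999 for each), where the background over all genes was 0%. At an unadjusted p under 0.05 the count was 0 of 26 by edgeR, against 2.73% of all genes, and 1 of 26 by DESeq2 and by limma-voom, against 2.32% and 2.64% of all genes. These called 0 of 26 after adjustment, against 0.0468% of all genes by DESeq2 and 0% by limma-voom. With pairs as a block, edgeR also called 0 of 26, against 0% of all genes. DESeq2 with that block called 0 of the 20 members to which it gave an adjusted p, against 0.339% of all genes with one. The protein genes were nonetheless mostly on the lower side, 12 of 13, with log2 fold changes of -0.28 to 0.08 and a median of -0.16. Without control 2 it was 10 of 13 with a median of -0.10, and without control 3 it was 12 of 13 with a median of -0.26. Of all genes tested 50.9% were on the lower side, and their median was -0.005. With counts scaled by library size alone 11 of 13 protein genes were lower, ND6 being the gene that turned (0.03), and the median of all genes moved to 0.061. Since these genes share precursors, their directions are not separate observations.

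In 4 of 26 genes (15.4%) every BHB library lay below every control library, against a background of 3.78% over all genes: COX2, ND1, ND4L and the shorter rRNA gene, KEH36_r02. COX2 was at 8060, 8902 and 8505 CPM in BHB libraries 1 to 3, against 10569, 10815 and 9392 CPM in control libraries 1 to 3. Its log2 fold change was -0.27 (SE 0.13, adjusted p = 0.999 by edgeR). ND1, a core subunit of the membrane arm of complex I, was at 3053, 3592 and 3504 CPM in BHB libraries, against 3750, 4073 and 3728 CPM in control libraries (log2 fold change -0.19, SE 0.13). Both groups of ND1 were close together, with BHB 1 the lowest library, and the log2 fold change was -0.12 without BHB 1.

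ND4L, another membrane subunit of complex I, was at 457, 404 and 415 CPM in BHB libraries, against 465, 593 and 478 CPM in control libraries (log2 fold change -0.27, SE 0.14). BHB 1 and control 1 were nearly level and the gap lay mainly in pair 2. KEH36_r02 was at 3027, 2947 and 2505 CPM in BHB libraries, against 3257, 4326 and 3037 CPM in control libraries (log2 fold change -0.32, SE 0.17), and here too control 2 was far above the others. Without control 2 the log2 fold change was -0.15 for KEH36_r02 and for ND4L. The longer rRNA gene, KEH36_r01, was at 5397, 5716 and 5632 CPM in BHB libraries, against 4040, 7774 and 6028 CPM in control libraries. Its BHB libraries fell inside the range of the controls (log2 fold change -0.09, SE 0.21), and its direction turned without control 2 (0.15).

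Within pairs, 6 of 26 genes (23.1%) were lower with BHB in 3 of 3 pairs, against a background of 15.7%: the 4 genes above, COX1 and CYTB. COX1 was at 22009, 26397 and 19578 CPM in BHB libraries, against 22288, 34468 and 25613 CPM in control libraries. The libraries of pair 1 were level for COX1, while pairs 2 and 3 differed by -0.39 each on the log2 scale. Its log2 fold change was -0.28 (SE 0.20), and -0.079 without control 2. CYTB was at 10484, 8261 and 7550 CPM in BHB libraries, against 12223, 9421 and 7665 CPM in control libraries, which differed by -0.22, -0.19 and -0.02 in pairs 1 to 3. With pairs as a block in edgeR, 5 of 26 genes (COX2, KEH36_r02, COX1, ND4L and ND1) had an unadjusted p under 0.05, against a background of 8.2% of all genes, and the smallest adjusted p among mitochondrial genes was 0.444.

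The size of the difference depended on the pair. In pair 2 all 13 protein genes were lower with BHB (median -0.33, range -0.55 to -0.15 on the log2 scale). In pair 1 it was 9 of 13 (median -0.20), with ATP8 at 0.61, ND2 at 0.15, ND6 at 0.13 and ND5 at 0.08. In pair 3 it was 7 of 13 (median -0.02), with ND3 at 0.25. Of all genes with counts, 49.6%, 49.6% and 51.2% were lower with BHB in pairs 1 to 3. Control 2 was the highest of the 6 libraries for 15 of 26 mitochondrial genes and the lowest for 0. The same count was not made over all genes, so it may not be particular to mitochondrial genes.

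**Figure D3:**
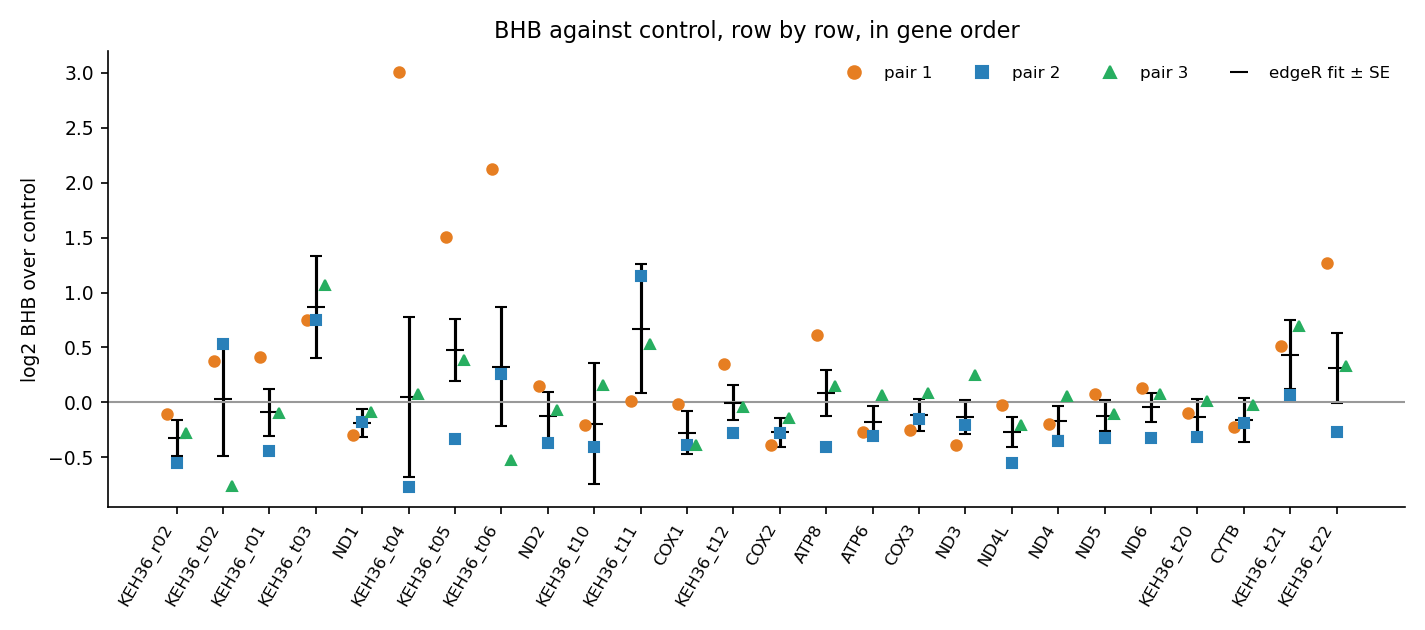
Log2 of BHB over control (vertical axis) for each mitochondrial gene in gene order (horizontal axis). Symbols give the 3 pairs and black bars the edgeR estimate ± SE. Protein genes lie within 0.28 of 0 in the fit, with pair 2 below 0 for all 13, and the scatter is widest for tRNA genes with few counts.

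By complex, the summed level of the 7 complex I genes was 14254, 14465 and 14969 CPM in BHB libraries, against 15561, 17821 and 15057 CPM in control libraries. These groups did not overlap (exact permutation test p = 0.10, adjusted over 4 complexes 0.40), but the closest libraries were 14969 in BHB 3 and 15057 in control 3. The difference of -1584 CPM was -747 CPM without control 2. The 3 complex IV genes summed to 44315 ± 4001 CPM in BHB and 51972 ± 7120 CPM in control libraries (exact permutation test p = 0.30, n = 3 each), lower with BHB in 3 of 3 pairs, and the difference of -7657 CPM was -3572 CPM without control 2. The 2 complex V genes summed to 10629 ± 449 CPM in BHB and 11942 ± 1408 CPM in control libraries (exact permutation test p = 0.30, n = 3 each). For complex III, whose only mitochondrial gene is CYTB, the difference of -1004 CPM turned to 222 CPM without control 1 (exact permutation test p = 0.60).

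The remaining protein genes overlapped between groups. ND2 was at 1843, 2303 and 2512 CPM in BHB libraries, against 1659, 2971 and 2638 CPM in control libraries (log2 fold change -0.13, SE 0.22). ND4, ND5 and ND3 had log2 fold changes of -0.17, -0.12 and -0.13 (SE 0.13 to 0.16). ND6, a complex I subunit and in mammals the one protein gene on the strand opposite to the others, was at 1252, 1101 and 1213 CPM in BHB libraries, against 1143, 1382 and 1153 CPM in control libraries (log2 fold change -0.04, SE 0.13). Set against the sum of the other protein genes, ND6 was higher by 0.15 on the log2 scale with BHB (exact permutation test p = 0.30, adjusted over 5 ratios 0.67), and the groups overlapped. ND6 shares bases with ND5 in the gene table, and reads of opposite strands can be told apart only if the counting used strand, which is not given in the sources used here.

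COX3, the third mitochondrial subunit of cytochrome c oxidase, was at 13257, 13420 and 12818 CPM in BHB libraries, against 15826, 14860 and 12085 CPM in control libraries (log2 fold change -0.12, SE 0.15). ATP6 was at 10437, 9660 and 10242 CPM in BHB libraries, against 12592, 11971 and 9802 CPM in control libraries (log2 fold change -0.18, SE 0.14). In both genes the BHB libraries were close together and control 3 fell among or below them. ATP8 was at 508, 455 and 584 CPM in BHB libraries, against 333, 601 and 526 CPM in control libraries, and was the 1 protein gene with a positive log2 fold change (0.08, SE 0.21), which turned to -0.12 without control 1 and to -0.015 without BHB 3.

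The makeup of mitochondrial RNA was tested apart from its amount, with each gene as a percent of all mitochondrial counts. The groups overlapped for 23 of 26 genes, and the smallest adjusted p over the 26 exact permutation tests was 0.867. COX1 alone took 25.9% ± 2.85 in BHB and 27.3% ± 3.93 in control libraries, COX3 15.1% ± 0.33 in BHB and 14.3% ± 1.73 in control libraries, and ATP6 11.6% ± 0.87 in BHB and 11.5% ± 1.28 in control libraries (SD, n = 3 each). COX2, the gene with the smallest edgeR p among the 26, took 9.72% ± 0.55 in BHB and 10.3% ± 0.66 in control libraries, and ND6 took 1.36% ± 0.13 in BHB and 1.23% ± 0.053 in control libraries. The rRNA genes took 3.23% ± 0.21 (KEH36_r02) and 6.40% ± 0.34 (KEH36_r01) in BHB libraries, against 3.52% ± 0.27 and 5.92% ± 1.53 in control libraries.

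The 3 genes without overlap were tRNA genes with a higher share in BHB libraries. KEH36_t22, the last tRNA gene in the gene order, took 0.32%, 0.31% and 0.41% of mitochondrial counts in BHB libraries, against 0.12%, 0.30% and 0.30% in control libraries. KEH36_t12, which shares bases with the end of COX1, took 0.33% ± 0.014 in BHB and 0.29% ± 0.037 in control libraries (SD, n = 3 each). KEH36_t21, next to CYTB and sharing bases with KEH36_t22, took 0.0070% ± 0.0019 in BHB and 0.0045% ± 0.00064 in control libraries. Each had an exact permutation p of 0.10 (adjusted p = 0.867, n = 3 each), the smallest possible here. A share within mitochondrial counts has no background over all genes. In CPM, KEH36_t12 and KEH36_t22 overlapped between the groups, and KEH36_t12 had a log2 fold change of -0.005. As a level, KEH36_t21 was the 1 gene of 26 (3.85%) with every BHB library above every control library, against a background of 4.06%.

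Counts on tRNA genes were concentrated in 4 of the 11 genes, KEH36_t12, KEH36_t22, KEH36_t05 and KEH36_t20, which held 97.5% of them over the 6 libraries. The 11 genes are only 66 to 75 bases long, so a count can belong to a precursor or a neighbour that covers the tRNA. KEH36_t22 was at 281, 284 and 343 CPM in BHB libraries, against 117, 343 and 273 CPM in control libraries (log2 fold change 0.31, SE 0.32, and -0.021 without control 1). KEH36_t05, which lies between KEH36_t04 and KEH36_t06, was at 97.3, 60.7 and 70.5 CPM in BHB libraries, against 34.2, 76.2 and 53.9 CPM in control libraries. In both genes control 1 was far below the other 5 libraries. KEH36_t12 was at 304, 291 and 268 CPM in BHB libraries, against 239, 352 and 275 CPM in control libraries, and KEH36_t20, between ND6 and CYTB, at 26.5, 24.7 and 27.7 CPM in BHB libraries, against 28.5, 30.6 and 27.5 CPM in control libraries.

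The other 7 tRNA genes had 1 to 52 counts per library. KEH36_t03 (log2 fold change 0.87, SE 0.47), KEH36_t11 (0.67, SE 0.59) and KEH36_t21 (0.43, SE 0.31) were higher with BHB in 3 of 3 pairs, which is 11.5% of the 26 genes against a background of 14.5%. KEH36_t03, between the longer rRNA gene and ND1, was at 2.02, 4.02 and 4.67 CPM in BHB libraries, against 1.20, 2.39 and 2.23 CPM in control libraries. KEH36_t02, KEH36_t04, KEH36_t06 and KEH36_t10 had log2 fold changes of 0.03, 0.05, 0.33 and -0.19 with SEs of 0.52 to 0.73. Each of these differences was smaller than its SE. The sum of all tRNA genes over the sum of protein genes was higher with BHB by 0.42 on the log2 scale with no overlap (exact permutation test p = 0.10, adjusted over 5 ratios 0.50), and by 0.94, 0.03 and 0.29 in pairs 1 to 3. Without control 1 it was higher by 0.16. The same ratio for rRNA genes differed by 0.05 (exact permutation test p = 1.0), and by -0.12 without control 1.

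**Figure D4:**
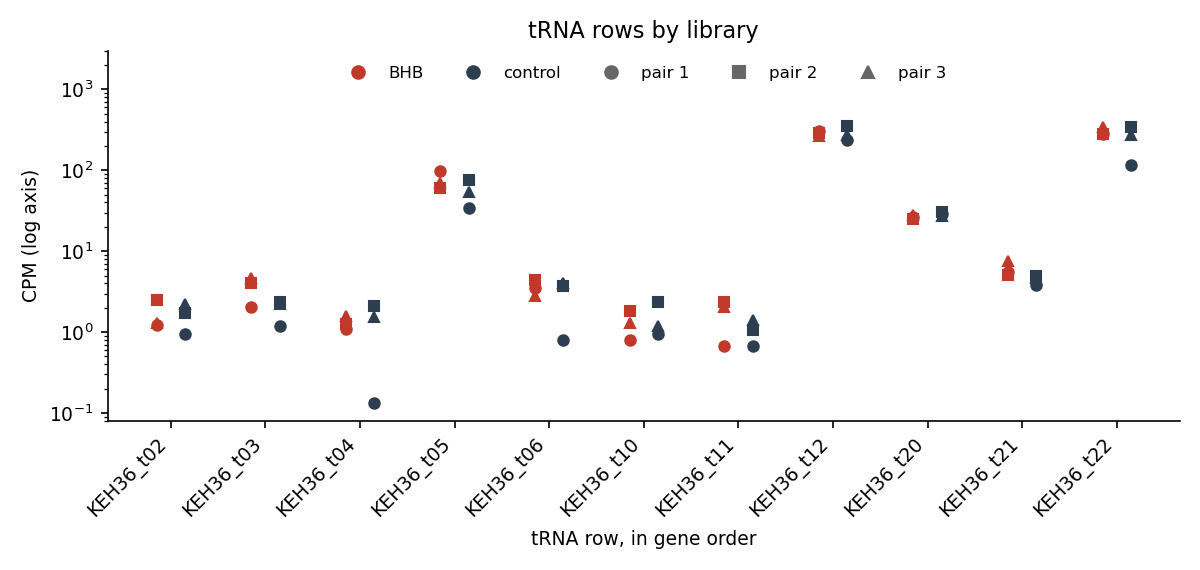
Level of each tRNA gene in CPM (vertical axis, log scale) by library, BHB left of control, in gene order (horizontal axis). Symbols give the pair. The 4 genes with most counts lie between 24.7 and 352 CPM, the other 7 below 8 CPM, and control 1 is the lowest library for 9 of 11 genes.

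Differences between pairs were larger for some genes than differences with treatment. A fit with pair and treatment was chosen after seeing the data. In it, edgeR's quasi-likelihood test called 2 of 26 genes (7.69%) between pairs, against a background of 4.12% of all genes. These were CYTB (adjusted p = 0.0243) and ND2 (adjusted p = 0.0499). DESeq2's likelihood ratio test called these and COX1 (adjusted p = 0.0388), against a background of 5.48%. CYTB averaged 11353 CPM in the 2 libraries of pair 1, 8841 CPM in pair 2 and 7607 CPM in pair 3. ND2 averaged 1751, 2637 and 2575 CPM in pairs 1 to 3, and COX1 22149, 30432 and 22595 CPM. CYTB was highest and ND2 lowest in pair 1 in both groups, so these 2 genes of the same genome went in opposite directions. Whether the makeup of mitochondrial RNA as a whole differed between pairs was not tested.

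The summed level of the trophectoderm markers moved with CYTB over the pairs. It was 13444, 11663 and 8295 CPM in BHB libraries 1 to 3, against 17115, 15332 and 10515 CPM in control libraries 1 to 3, and most of it came from the keratin genes KRT8 and KRT18. Both were also called between pairs. The sum was lower with BHB in 3 of 3 pairs, as were KRT8 and KRT18, whereas CDX2, TFAP2C and TEAD4 were higher in 3 of 3 pairs. The part of these markers in the level of CYTB or in the mitochondrial share of counts was not tested. In the authors' deposited table, 4 of 26 mitochondrial genes had an adjusted p under 0.05: CYTB (0.0033), ND2 (0.0083), COX1 (0.0093) and KEH36_r02 (0.0455), against a background of 5.04% of its genes. A refit showed that this deposited p tests pair and treatment together, so it does not separate the difference with BHB from that between pairs. The log2 fold changes of control over BHB in the authors' deposited table were 0.15 for CYTB, 0.10 for ND2, 0.27 for COX1 and 0.32 for KEH36_r02.

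**Figure D5:**
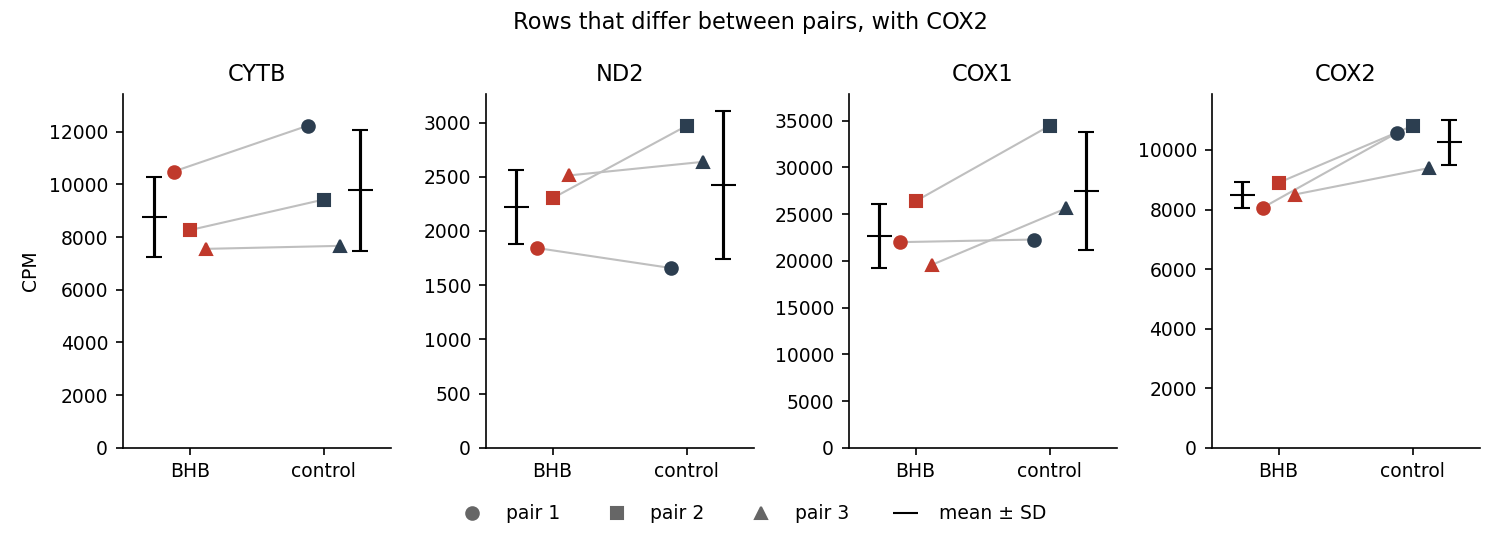
Level in CPM (vertical axes, each from 0) of CYTB, ND2, COX1 and COX2 in BHB and control libraries. Grey lines join the libraries of a pair and bars give mean ± SD. CYTB is highest and ND2 lowest in pair 1 in both groups, COX1 is highest in pair 2, and for COX2 every BHB library lies below every control library.

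Control 1 was the lowest of the 6 libraries for 12 of 26 mitochondrial genes, among them 9 of 11 tRNA genes, the longer rRNA gene, ND2 and ATP8, and the highest for ATP6, COX3, ND3 and CYTB. Its partner BHB 1 was the lowest for 3 genes and the highest for 1. These counts, too, have no background over all genes. Without pair 1, 2 BHB against 2 control libraries, edgeR called 0 of 26 genes and 12 of 13 protein genes were on the lower side (median log2 fold change -0.14), ND3 in place of ATP8 being the exception.

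Of the nuclear partners of these proteins, 76 subunits of oxidative phosphorylation were tested. Negative log2 fold changes were found for 60 of them (median -0.08) and 0 were called. Every BHB library lay below every control library for 5.26%, against the background of 3.78%, and 25.0% were lower in 3 of 3 pairs, against the background of 15.7%. Counts on the 13 mitochondrial protein genes over those on the nuclear subunits gave a log2 ratio of 1.81, 1.72 and 1.64 in BHB libraries 1 to 3, against 1.70, 1.94 and 1.80 in control libraries 1 to 3. The groups overlapped, and the difference was -0.087 (exact permutation test p = 0.50).

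Genes of the nuclear machinery that copies, transcribes and reads the mitochondrial genome did not pass the test. Of 91 such genes in 8 lists, 87 were tested, with 41 positive and 46 negative log2 fold changes (median -0.015). By edgeR 0 were called and 1 had an unadjusted p under 0.05. Every BHB library lay below every control library in 6 of them (6.9%, background 3.78%) and above in 3 (3.45%, background 4.06%). POLRMT, the mitochondrial RNA polymerase, was at 12.6 ± 1.61 CPM in BHB and 11.2 ± 1.68 CPM in control libraries, and TFAM, which packs the DNA and starts transcription, at 115 ± 15.04 CPM in BHB and 113 ± 11.6 CPM in control libraries (SD, n = 3 each, here and for the genes that follow). LRPPRC and SLIRP, which together stabilise mitochondrial mRNAs, were at 533 ± 16.96 and 184 ± 55.7 CPM in BHB and at 540 ± 44.8 and 191 ± 7.46 CPM in control libraries. MTPAP, the mitochondrial poly(A) polymerase, was at 37.3 ± 5.36 CPM in BHB and 42.5 ± 5.38 CPM in control libraries (log2 fold change -0.19, SE 0.18).

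The DNA polymerase gene POLG was at 13.6 ± 2.49 CPM in BHB and 14.3 ± 1.44 CPM in control libraries. The helicase gene TWNK was at 14.6 ± 2.15 CPM in BHB and 14.5 ± 1.79 CPM in control libraries. PPARGC1A, a coactivator of mitochondrial biogenesis, was at 3.07 ± 1.79 CPM in BHB and 2.37 ± 0.91 CPM in control libraries. The genes with the smallest p in each list had these log2 fold changes. For transcription they were MTERF3 (0.32) and MTERF2 (-0.51), and for RNA processing ELAC2, which cuts tRNA ends (0.48), and FASTK (0.23). For RNA stability they were REXO2 (0.24) and SUPV3L1 (-0.07), for tRNA modification CDK5RAP1 (0.19) and OSGEPL1 (-0.24), and for rRNA modification TFB1M (0.18) and MRM2 (-0.40). For DNA upkeep they were RRM2B (-0.54) and DGUOK (-0.27), both of which supply nucleotides. For translation they were the release factor gene MTRF1 (0.44, the gene with an unadjusted p under 0.05) and GFM2 (-0.27), and for biogenesis GABPB1 (-0.13). The largest in size came from genes at low levels. MTERF2 was at 2.63 CPM in BHB and 3.78 CPM in control libraries (SE 0.44). RRM2B was at 7.41 CPM in BHB and 10.7 CPM in control libraries (SE 0.27). Translation factors had 11 of 12 members with negative values (median -0.17), and RNA processing genes 11 of 15 with positive values (median 0.08), with 0 called in either list.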

How the data were processed

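RNA of 3 BHB and 3 control pools was sequenced from stranded libraries of polyadenylated RNA, per the labels' protocols. The authors deposited whole-number counts per gene, not normalized, and a table of their own comparison that holds p-values, a test statistic (a score), a log2 fold change with its error and the mean of normalized counts (a signal). STAR, featureCounts and DESeq2 are named in the notes, per the submitters' processing notes. What version, build, annotation and strand setting they used, and how they counted reads with several matches, as from nuclear copies of mitochondrial DNA, is not given in the sources used here. No gene in the table has fewer than 38 counts in all, so genes with fewer are not analysed here.

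Locus tags were matched to names, gene order and lengths in the ARS-UCD2.0 gene table (26 of 26 matched), and coordinates are left out since the files name no build. Counts were scaled with edgeR's TMM factors, and filterByExpr left 12732 genes, 94 fewer than deposited. Differences of BHB over control were tested in edgeR 4.0.16 (R 4.3.3) by quasi-likelihood, with a Benjamini-Hochberg adjusted p under 0.05 over all genes as a call. DESeq2 1.42.0 and limma 3.58.1 (voom) were alternatives, and the fit was tested on simulated data. Shares, sums and ratios were compared with two-sided exact permutation tests over libraries (SciPy 1.17.1).

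The labels give no replicate numbers, so libraries were numbered in order of deposit. DESeq2's likelihood ratio test of pair and treatment together matched the authors' p-values to 1e-06 for 99.98% of genes with same-numbered pairs and for at most 0.398% with the other 5 pairings. Deviations from the group means correlated over genes at 0.46, 0.32 and 0.33 within these pairs. The members and gene lists were chosen with earlier results of these data known. Named genes are every mitochondrial gene, 8 fixed nuclear genes and the 2 with the smallest p of each machinery list.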

Additional observations from a re-analysis of the deposited data

How the results depend on the processing

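The count of mitochondrial genes called was 0 with every normalization, filter, tool, block and library left out, and so was that of machinery genes. Over all genes, DESeq2 called 6, DESeq2 with the replicate block 35, and edgeR 0 to 1 with a library left out. The replicate block changed no mitochondrial call. For the mitochondrial share it could not move the difference of -0.80 percentage points, since the mean of the differences within pairs equals it by arithmetic. With a library left out the difference in mitochondrial share was -1.09 to -0.33 percentage points. With nuclear counts as denominator its sign could not change, since the groups did not overlap in raw counts. Over library sizes scaled by TMM the groups did overlap, with BHB 2 above control 3. The log2 fold change of KEH36_t12 turned to 0.061 by library size alone, 0.012 by limma-voom, 0.011 by edgeR with the replicate block and 0.0065 by DESeq2 with it, and that of ND6 to 0.025 by library size alone. Without pair 1, chosen after seeing the data, KEH36_t02, KEH36_t04, KEH36_t06 and ATP8 turned to -0.055, -0.35, -0.095 and -0.12, and ND3 to 0.012. With a library left out, log2 fold changes ran from -0.12 to 0.27 (ATP8), -0.31 to 0.040 (CYTB), -0.30 to 0.15 (KEH36_r01), -0.37 to 0.33 (KEH36_t02), -0.47 to 0.61 (KEH36_t04), -0.11 to 0.66 (KEH36_t06), -0.49 to 0.30 (KEH36_t10), -0.12 to 0.16 (KEH36_t12), -0.021 to 0.64 (KEH36_t22), -0.33 to 0.048 (ND2), -0.26 to 0.011 (ND3) and -0.090 to 0.051 (ND6). Other differences that turned ran from -0.18 to 0.044 percentage points (rRNA share), -2057 to 222 CPM (complex III), -0.032 to 0.48 (log2 of ATP8 over ATP6) and -0.12 to 0.16 (log2 of rRNA over protein genes). Shares of mitochondrial counts were recomputed for 11 of 26 genes, and those that turned ran from -3.67 to 0.13 percentage points (COX1), -0.34 to 0.84 (ATP6), -0.73 to 1.58 (CYTB) and -0.40 to 0.96 (KEH36_r01). The cause of these turns was not tested, and each fit without 1 library keeps its partner. With 3 libraries a group, exact tests of single values could not fall below 0.10, and 7 tRNA genes had at most 52 counts in a library.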
